A study of Mus musculus with 7 samples.

Results

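Cluster 9 is 1 of the authors' RNA clusters of myeloid cells, and the cells described here are its 198 members from LLC tumor tissue, chosen by cluster number and library in the deposited metadata. They were 198 of 4290 cells with gene counts in the whole series and 198 of 1917 such cells in the tumor tissue library, a share of 10.3% (exact Clopper-Pearson interval at 95%, 9.0 to 11.8%). The study took CD11b+ enriched cells of C57/Bl6 mice that were either naive or carried an LLC tumor (Lewis lung carcinoma, a transplantable mouse line) at day 14, and read RNA and antibody-derived tags of 47 surface antibodies in each cell. Blood, bone marrow and spleen gave a naive and a tumor-bearing library each, and tumor tissue gave 1, so there were 7 libraries. The groups used here are the tumor tissue library and, for reference, the tumor-bearing blood library, with tumor-bearing spleen and naive blood as alternatives. How many mice each library held, and whether tissues came from the same mice, is not given in the sources used here. Since each group is 1 library, no difference below has a replicate check, and all intervals cover counting error only. The cells were clustered on these same genes, so every RNA difference from another cluster is a description without a test.

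CD11b, an integrin chain, is carried by monocytes, macrophages, neutrophils and some dendritic cells. Monocytes leave the blood and enter a growing tumor, where they turn down genes of circulating cells and turn on genes of macrophages, of low oxygen and of inflammation. Circulating mouse monocytes fall into a classical kind, which carries much Ly-6C, and a non-classical kind, which patrols vessel walls and expresses Ace, Treml4 and Spn. The genes that name the cluster are of several kinds. Socs3 is a feedback inhibitor of STAT3 signalling, Arid5a binds and stabilises inflammatory messenger RNAs, Nfil3 is a bZIP repressor that opposes the PAR bZIP factors, Adora2b is a low-affinity adenosine receptor, Ahr is a ligand-activated transcription factor, Gpcpd1 cleaves glycerophosphocholine, and Dmkn (dermokine) is a secreted protein best known from the epidermis.

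The members were alike in depth to most other tumor cells. The median cell held 8782 UMIs (unique molecular identifiers, counted molecules) and 2464 genes, against 8971 UMIs and 2427 genes in the 1671 tumor tissue cells of the 7 other clusters with at least 50 cells, which are the comparison throughout. These clusters are numbered 3, 5, 7, 8, 10, 11 and 17. No member exceeded 17373 UMIs, and the median mitochondrial share was 3.69% against 3.25%. Antibody tags were fewer, with a median of 1084 per member against 1718. Cell barcodes shared between libraries numbered 2 among all counted cells, and 0 of them belonged to a member.

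The promoters of the given genes are shown first because their letters bear on the pathways that the names point to. The table used, from RefSeq (GRCm38.p6), gives 250 bases before to 50 after a transcription start and held entries for 5 of the 7 genes. Gpcpd1 and Ahr had none. The windows were searched on both strands for TTCNNNGAA (a STAT site), TGACGTCA (the cAMP response element), GCGTG (the core bound by AHR with ARNT) and TTANNTAA (a PAR bZIP core, also bound by NFIL3). None of these motifs is contained in another. Of 32851 promoters of the same length, 8.30% held the STAT letters, 1.79% the cAMP element, 32.4% the AHR core and 6.0% the PAR bZIP core. Matches stood in 3 of 7 windows, and those are printed from 5′ to 3′ on the gene's strand with the match in capitals.
Socs3, chr11:117969317-117969616, minus strand: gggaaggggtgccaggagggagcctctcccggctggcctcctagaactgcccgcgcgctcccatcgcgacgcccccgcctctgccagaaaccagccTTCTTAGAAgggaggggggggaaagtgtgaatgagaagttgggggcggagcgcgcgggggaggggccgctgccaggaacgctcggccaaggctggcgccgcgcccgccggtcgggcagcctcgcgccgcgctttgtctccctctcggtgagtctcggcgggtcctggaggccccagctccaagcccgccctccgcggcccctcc
Adora2b, chr11:62248734-62249033, plus strand: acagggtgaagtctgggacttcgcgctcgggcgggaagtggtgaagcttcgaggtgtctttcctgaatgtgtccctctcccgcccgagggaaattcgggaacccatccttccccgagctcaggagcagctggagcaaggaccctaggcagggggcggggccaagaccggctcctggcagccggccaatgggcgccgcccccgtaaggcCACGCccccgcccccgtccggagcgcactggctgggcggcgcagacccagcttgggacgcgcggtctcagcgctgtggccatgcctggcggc
Dmkn, a downstream start, chr7:30776155-30776454, plus strand: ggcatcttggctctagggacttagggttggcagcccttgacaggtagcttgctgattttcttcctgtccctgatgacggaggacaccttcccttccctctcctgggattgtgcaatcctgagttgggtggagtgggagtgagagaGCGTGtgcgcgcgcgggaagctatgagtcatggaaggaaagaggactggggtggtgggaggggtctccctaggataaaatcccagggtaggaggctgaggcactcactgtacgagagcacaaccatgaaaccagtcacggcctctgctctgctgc
The Socs3 window held 1 STAT match beginning 154 bases before the start. The Adora2b window held the AHR core on the opposite strand, 42 bases before the start, and the downstream Dmkn window held it on the given strand, 105 bases before. The windows of Nfil3 and Arid5a and the other Dmkn windows held none of these letters. A match is a string of letters and not evidence of binding.

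The label was checked against the data. Of the genes in it, Dmkn and Nfil3 did not set the cells apart from the other tumor clusters, and Socs3 was highest here but by less than 2-fold. Levels are counts per 1000000 UMIs (CPM) of the summed cells of a cluster. A gene counted as measured with at least 30 UMIs in both sides together and 20 CPM in one, and was called higher or lower where the ratio of levels reached 2-fold. All 7 were measured, 5 of 7 were highest in cluster 9 among the 8 tumor clusters, and 3 of 7 were at least 2-fold higher than in the other tumor tissue cells, beside 3.94% of all 5251 genes measured. Since the genes were picked for this cluster, nothing is read from that count.

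Gpcpd1 separated the cluster most clearly. It stood at 232 CPM (exact Poisson interval at 95%, 210 to 255), while the other tumor clusters ran from 40.5 in cluster 11 over a median of 63.9 to 76.4 in cluster 5. No other cluster came within that interval, and the ratio to the other tumor cells together was 4.05 (3.61 to 4.55). A Gpcpd1 UMI was found in 76.8% of members (70.3 to 82.5%) and in 38.8% of the other tumor cells, or in 48.7% and 15.2% after every cell was thinned to 3000 UMIs. Ahr came next at 179 CPM (160 to 200), against 42.3 to 109.8 CPM with a median of 75.8 in the other clusters, a ratio of 2.56 (2.26 to 2.90).

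The remaining markers were weaker. Arid5a and Socs3 lay above every other tumor cluster. Nfil3 was also highest, but only within counting error, while Adora2b and Dmkn were not highest. Arid5a stood at 146 CPM (129 to 165) against 52.8 to 122.7 CPM, a ratio of 2.0 (1.75 to 2.29), which sits on the 2-fold line and fell below it under 6 of the alternative settings. Socs3 stood at 432 CPM (402 to 464) and was also well expressed elsewhere, from 231 to 349 CPM, a ratio of 1.47 (1.36 to 1.58). Nfil3, at 370 CPM (342 to 399), could not be told from cluster 7 at 359 or cluster 5 at 342 CPM by counting error. Adora2b, at 151 CPM (133 to 170), was level with cluster 7 at 154 CPM. Dmkn, the first gene of the name, was not highest here: it stood at 117 CPM (101 to 134), below cluster 7 at 168 and level with cluster 5 at 127 and cluster 10 at 107 CPM. The order of Dmkn levels was cluster 7, 5, 9, 10, 3, 8, 17 and 11.

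**Figure D1:**
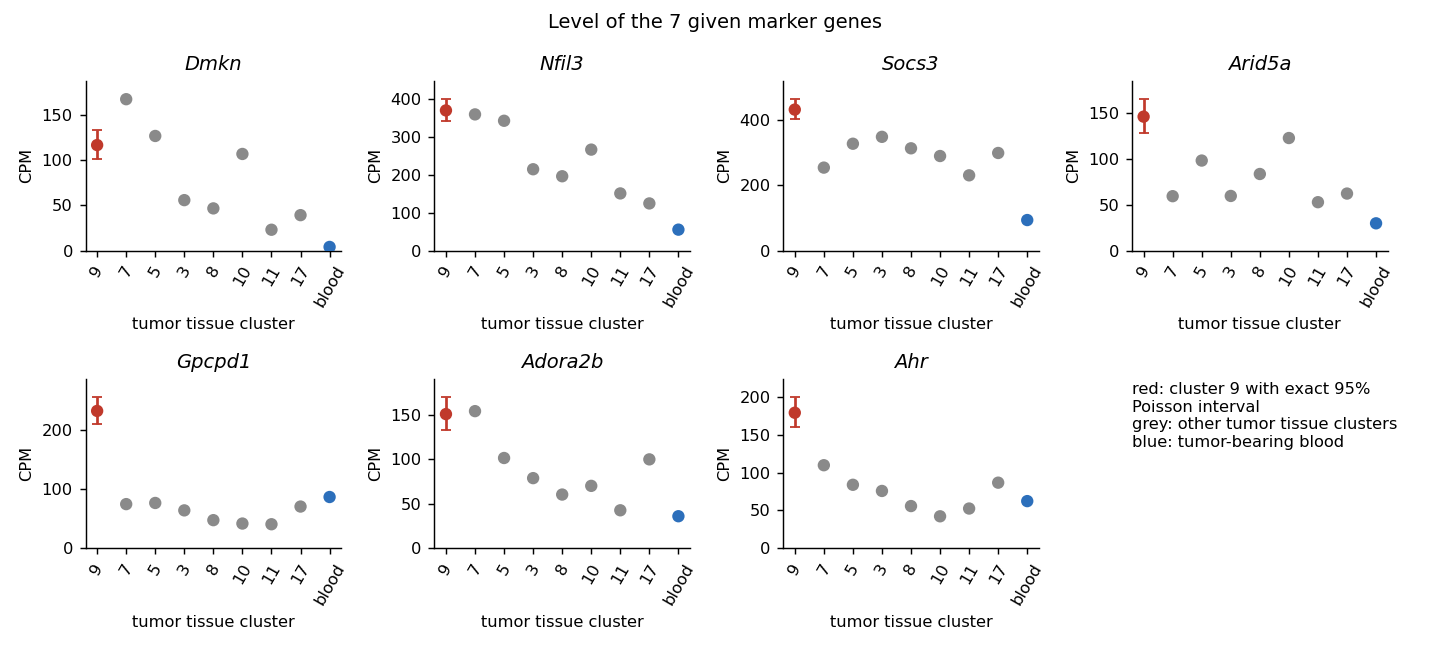
CPM of each of the 7 given marker genes (vertical axis, from 0) in cluster 9 (red, with its exact 95% Poisson interval), the 7 other tumor tissue clusters (grey) and tumor-bearing blood (blue). Gpcpd1 stands apart at 232 CPM, whereas Dmkn is higher in cluster 7 at 168 CPM than in cluster 9 at 117, and all 7 genes are lower in blood than in cluster 9.

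Within single cells the names combined loosely. After thinning, which left out 1 of the 198 members and 35 of the other tumor cells, 35.5% of 197 members held a UMI of at least 4 of the 7 genes, against 13.7% in cluster 7 and 7.95% over the other tumor cells. Dmkn was seen in 18.8% of thinned members and 17.3% of the other thinned tumor cells. Unthinned, the Dmkn shares were 36.9% (30.1 to 44.0%) and 31.8%, and 3.13% in tumor-bearing blood, whose median cell was deeper at 12440 UMIs. Pairwise correlations of the 7 genes over the thinned members ran from -0.08 to 0.13 in 21 pairs, which at these sparse counts is no pattern. They are given without a test, since members share 1 library.

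The genes that most often went with the given set across the tumor clusters were of other kinds. Over the 8 clusters, the mean log2(CPM + 1) of the 7 genes was followed most closely by H3f3a (Pearson's r 0.99), Tyrobp (0.96), Ace (0.96), Dgat2 (0.96), Treml4 (0.96), Hsd11b1 (0.95), Ndufa3 (0.95) and Tiam2 (0.95). These are descriptions over 8 points from 1 library.

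The genes that led the cluster were others than those in its name, and all 14 of them were found in tumor-bearing blood as well. Of 5251 measured genes, 207 (3.94%) stood 2-fold or more above the other tumor tissue cells and 452 (8.61%) as far below them. Of the 207 higher genes, 187 had their highest level of the 8 tumor clusters in cluster 9. Of the 452 lower genes, 268 had their lowest level there. These genes were chosen by their ratio to the same clusters, so nothing is read from how many were highest or lowest. The leading genes were Hpgd, Serpinb10, Ear2, Ace, Adgre4, Pdlim1, Lcn2, Cd300lg, Ldlrad3, Eno3, Dgkg, Treml4, Pglyrp1 and Ramp1.

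Hpgd encodes the enzyme that inactivates prostaglandins by oxidising their 15-hydroxyl group. It lies on chromosome 8 at 56294585 to 56321043, plus strand (GRCm38, GENCODE M21). Its level was 113 CPM (97.8 to 129.8) in cluster 9, while the other tumor clusters ran from 3.79 over a median of 7.52 to 10.4 CPM. The groups were far apart, with a ratio of 17.7 (14.1 to 22.4). A Hpgd UMI was present in 28.3% of members (22.1 to 35.1%) against 4.37% of the other tumor cells, or 19.8% against 1.28% after thinning, so the level was carried by a minority of members. In tumor-bearing blood it was higher still, at 201 CPM and 48.4% of cells.

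Serpinb10, an intracellular serine protease inhibitor of haematopoietic cells, is annotated as a polymorphic pseudogene in GENCODE M21 (chromosome 1, 107529003 to 107549271, plus strand). It stood at 137 CPM (121 to 156) against 2.83 to 21.0 CPM in the other tumor clusters, a ratio of 14.8 (12.2 to 18.1), and at 265 CPM in blood. Ace, the angiotensin-converting enzyme, on chromosome 11 at 105967945 to 105989964, stood at 104 CPM (89.3 to 120.1) against 2.83 to 25.7 CPM, a ratio of 9.25 (7.55 to 11.3), and at 248 CPM in blood. Both followed one order: blood highest, cluster 9 in between and every other tumor cluster lowest.

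Most of the remaining leaders showed the same order. Adgre4, an adhesion receptor of the EMR family, stood at 77.0 CPM (64.6 to 91.2) against at most 15.6 CPM in another tumor cluster. Treml4, a receptor that binds dead cells, stood at 87.3 CPM (74.0 to 102.3) against at most 23.8 CPM. Ramp1, a subunit of the calcitonin gene-related peptide receptor, stood at 160 CPM (142 to 180) against at most 49.1 CPM, and its blood level of 168 CPM lay within that interval. Pdlim1, a cytoskeletal adaptor, was the clearest exception to the blood order, at 155 CPM (137 to 174) against 127 CPM in blood and at most 36.0 CPM in the tumor. Ear2 belongs to a family of near-identical ribonuclease genes among which reads could be split, so its 42.2 CPM are uncertain. Of the 62 Lcn2 UMIs, 35 came from 1 cell, and without that cell Lcn2 no longer counted as measured.

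The lowest genes included several of activated macrophages. Arg1, which encodes arginase 1, stood at 14.8 CPM (9.69 to 21.7) against 17.99 to 1187 CPM, with a median of 309, in the other tumor clusters. Cluster 17 alone was close to it, and the level over the other tumor cells was 48.7-fold higher (33.2 to 74.5). Cxcl3, a neutrophil-attracting chemokine, had 0 UMIs in all 198 members, so its level was at least 36.3-fold lower than in the other tumor cells at a floor of 3 UMIs in the cluster. Ccl5 and Cxcl9, which attract T cells, stood at 4.56 CPM (1.97 to 8.99) and 5.13 CPM (2.35 to 9.75), where the other tumor cells together stood at 231 and 223 CPM. Irg1, which makes itaconate, Ms4a7, a membrane protein of macrophages, Ifit1bl1, an interferon-induced gene, and Tmem119 complete the list, with 2.28, 16.5, 1.71 and 0.57 CPM. Ifit1bl1 and Tmem119 rested on 3 UMIs and 1 UMI in the cluster.

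**Figure D2:**
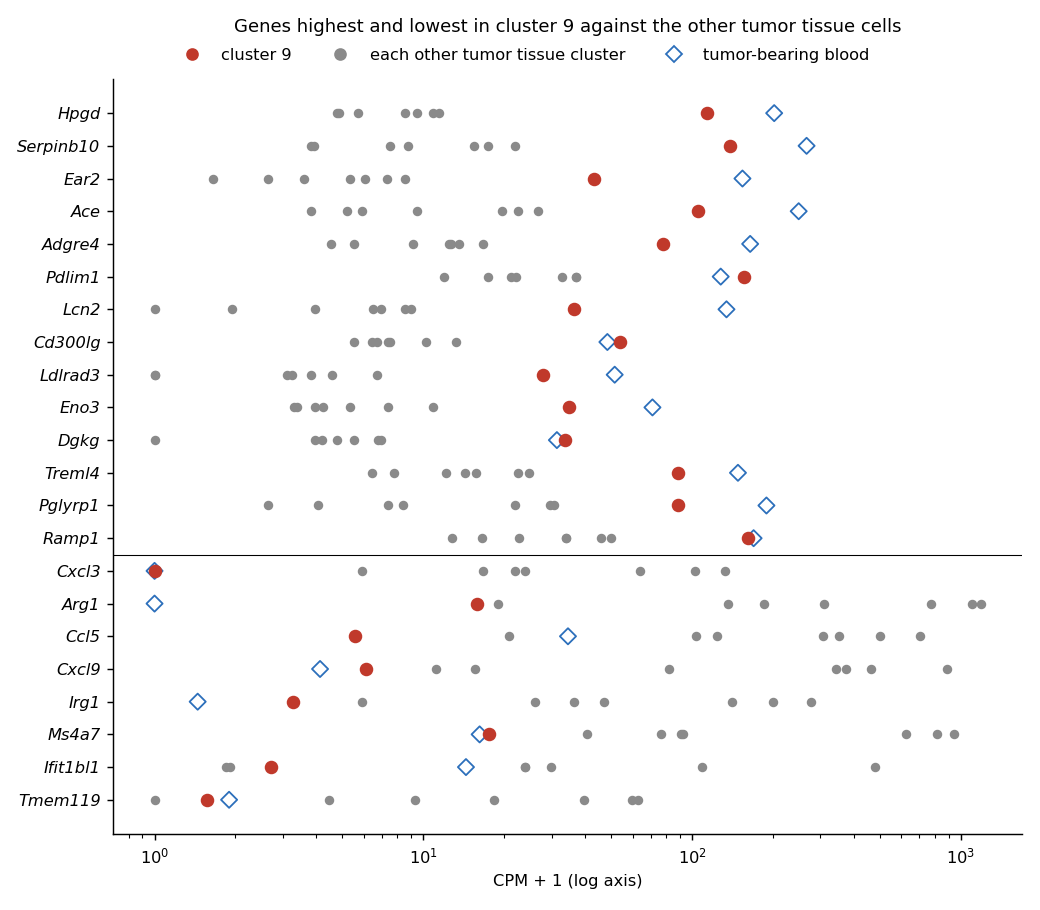
CPM + 1 on a log axis for the 14 genes with the highest and the 8 with the lowest ratio of cluster 9 to the other tumor tissue cells, in cluster 9 (red), each other tumor cluster (grey) and tumor-bearing blood (blue diamonds). For all 14 upper genes cluster 9 lies to the right of every grey point and, in 11 of them, to the left of the blood diamond.

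The cell type sets gave no name. Of the monocyte set, all 7 genes had UMIs and summed to 9319 CPM in cluster 9, against 3014 to 14613 CPM in the other tumor clusters and 12798 CPM in blood, so the set did not single the cluster out. The macrophage set summed to 2174 CPM in cluster 9, inside the range of 718 to 15456 CPM over the other tumor clusters, and to 7946 CPM over their cells together. Among the neutrophil genes, 5 of 10 (Retnlg, Ngp, Camp, Ltf and Ly6g) had 0 UMIs and the set summed to 221 CPM, against 3875 CPM in blood. The conventional dendritic set summed to 402 CPM, against 137 to 7116 CPM in the other tumor clusters and 531 CPM in blood. Of its 4 measured members Batf3 was higher than in the other tumor cells, and H2-Eb1 and Itgax were lower. Against cluster 7 all 3 measured members (Cd209a, H2-Eb1 and Batf3) were higher, and against cluster 5 Cd209a and Batf3 were. T cell markers Cd3d, Cd3e, Cd8a and Cd4, mast cell genes, red cell genes and the carcinoma genes Krt8, Epcam, Cldn4 and Cldn7 were at 0 UMIs. Not all genes of the T cell and carcinoma sets were at 0, and these sets summed to 1.14 and 4.56 CPM. The other tumor clusters ran from 0 to 1.16 and from 4.05 to 26.2 CPM. Keratinocyte genes, which share with Dmkn a known place in skin, summed to 1.14 CPM, with 5 of 7 at 0. Of the B cell genes, 4 of 7 had 0 UMIs, and the set summed to 108 CPM, against 23.5 to 111 CPM in the other clusters. Ighm, the 1 B cell gene measured against the other tumor cells, was higher than there (log2 ratio 1.53) and lower than in blood. The cluster is therefore called by its number.

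Across the pathway lists, chemokine, interferon and low-oxygen genes were lower than in the other tumor cells, and the STAT3 list was near balance. Lists are described by their measured members, beside a median log2 ratio of -0.03 over all measured genes. Of all measured genes 3.94% were called higher and 8.61% lower, and counts near these shares are not read as a result about a list.

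In the STAT3 and SOCS set, 4 of 22 measured members were higher and 2 lower, with a median log2 ratio of 0.06. Socs3 itself stayed under 2-fold. Higher were Batf, an AP-1 family factor, at 53.6 CPM against 19.0 over the other tumor cells, Cebpd, a C/EBP factor induced in acute inflammation, at 189 against 69.9, Bcl3, an atypical I-kappa-B protein, at 168 CPM, and Arid5a. Each of Batf, Cebpd and Bcl3 was above all 7 other tumor clusters. Lower were Il1rn, the interleukin-1 receptor antagonist, at 75.3 against 309 CPM, and Socs1, another SOCS inhibitor, at 35.4 against 85.6 CPM. Socs1 was not low against every cluster, since cluster 7 had 19.8 CPM.

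The adenosine set did not follow Adora2b. Of 6 measured members 1 was higher and 2 lower. Nt5e, which encodes CD73 and makes adenosine outside the cell, stood at 0.57 CPM, from 1 UMI, against 22.8 CPM in the other tumor cells. Entpd1 (CD39), which starts that conversion, stood at 47.4 against 92.0 CPM, short of 2-fold. In the cAMP-CREB set, which an adenosine receptor of this kind can drive, 0 of 17 were higher and 3 (Pde3b, Areg and Rgs1) lower. In the aryl hydrocarbon receptor set Ahr was the 1 higher member of 6. Tiparp, a known AHR target, stood at 143 CPM against 219 and was not past 2-fold. The circadian and PAR bZIP set had 3 measured members, Nfil3, Bhlhe40 and Per1, and 0 past 2-fold. Among lipid mediator genes 2 of 13 were higher, Hpgd and Gpcpd1, and 5 lower, among them Ptgs2, the inducible cyclooxygenase that begins prostaglandin synthesis, at 50.2 CPM against 231.

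Chemokines were the most depleted set, with 15 of 18 measured members lower, 0 higher and a median log2 ratio of -3.54. Against cluster 7 alone the median was -0.53, with 5 of 12 lower. The low end against the other tumor cells together included Cxcl3, Ccl5, Cxcl9 and Cxcl11. Cxcl2, another neutrophil attractant, still stood at 220 CPM against 1567. Among cytokines and growth factors 8 of 14 were lower, including Il1a, Vegfa and Ptgs2, and 1 was higher. That 1 was Tnfsf14 (LIGHT), at 23.4 CPM (16.8 to 31.7) against 4.63 to 12.3 CPM.

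Genes of low oxygen and glycolysis were lower in 17 of 31 measured members and higher in 0, with a median log2 ratio of -1.16. Hilpda, a lipid droplet protein induced by hypoxia, stood at 34.8 CPM (26.6 to 44.7) against 118 to 529 CPM in the other tumor clusters, without overlap. Vegfa, the vascular growth factor, stood at 54.2 CPM (43.9 to 66.3) against 113 to 448 CPM, also without overlap. Bnip3, a mitophagy receptor, stood at 20.5 against 50.7 to 261 CPM. The lower members included the glycolytic enzymes Pfkl, Aldoa, Tpi1, Gapdh, Pgk1, Pgam1 and Ldha.

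The type I interferon set was lower in 19 of 26 and higher in 0, and the interferon-gamma GTPases in 7 of 10 and 0. These sets vary strongly among tumor clusters. Ifit1, for example, ran from 10.9 CPM in cluster 7 to 1559 in cluster 10, and cluster 9 at 10.8 CPM was at the low end with cluster 7. Among resident-type macrophage genes 10 of 14 were lower and 0 higher (median log2 ratio -2.75). Without cluster 11 in the comparison, 8 of 12 were lower (median -1.75). The 2 nearest clusters differed less, with 2 of 12 lower and 1 higher against cluster 7. Against cluster 5, 3 of 12 were lower and 1 higher. C1qa and C1qb, chains of complement C1q, stood at 53.6 and 59.3 CPM, below every other tumor cluster, where they reached 3080 and 3451 CPM in cluster 11. Of the tumor macrophage set around Spp1 and Arg1, 10 of 18 were lower and 1, Mmp8, higher. Spp1 (osteopontin) stood at 69.0 CPM (57.3 to 82.5) against 430 to 2555 CPM in the other tumor clusters.

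The classical monocyte set split, with 3 of 15 higher and 2 lower. Hp (haptoglobin) stood at 1077 CPM (1029 to 1127) against 9.82 to 410 CPM, a ratio of 6.04 (5.71 to 6.39). Chil3, a chitinase-like secreted protein, stood at 2529 against 996 CPM. S100a9 and S100a8, which form calprotectin, were lower at 7.42 and 37.1 CPM, and 49 of the 65 S100a8 UMIs came from 1 cell. A list of non-classical monocyte genes, added after the values were seen, had 8 of 14 measured members higher, among them Spn, Itgal and Pou2f2 beside Ace, Ear2, Treml4, Adgre4 and Eno3. The list holds several leading genes of this same comparison, so nothing is read from that count. Its 1 lower member was Fcgr4, the Fc receptor CD16.2, at 34.2 CPM against 62.2 to 287.

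Glutathione and redox enzymes, also added afterwards, were higher in 4 of 10 and lower in 2. Mgst1, a microsomal glutathione transferase, stood at 557 CPM (522 to 593) against 6.54 to 268, and Gsr, glutathione reductase, at 735 CPM (696 to 777) against 63.1 to 524. Among integrins, another list of that kind, Itgal, Itga4 and Itgb7 were higher and Itgax, Itga6, Itgav and Itgb5 lower, of 11 measured. Itgal, which pairs with CD18 as LFA-1, stood at 270 CPM (247 to 296) against at most 89.5 CPM. Of the measured members, 0 of 10 heat shock and dissociation genes, 2 of 21 NF-kB genes and 3 of 19 AP-1 genes passed 2-fold, all 5 of these downward. The ER stress set had 1 of 9 higher, Xbp1, at 357 CPM against 155 to 192. The antioxidant set had Gsr higher and Hmox1 and Slc7a11 lower, of 10. The CSF receptor set had 0 of 11 higher and 2 lower (Tgfbr1 and Il1r2), MHC class II had 0 of 6 higher and 1 lower (H2-Eb1). With equal weight per comparison cluster 5 of 7 class II genes were lower (median log2 ratio -1.24 in place of -0.65). The cell cycle set had 0 of 3 higher and 2 lower (Stmn1 and Tubb5). The median of this list turned on cluster 11, without which the list median was 0.08 rather than -1.15. Of the epidermal set Dmkn was the 1 measured member of 10.

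**Figure D3:**
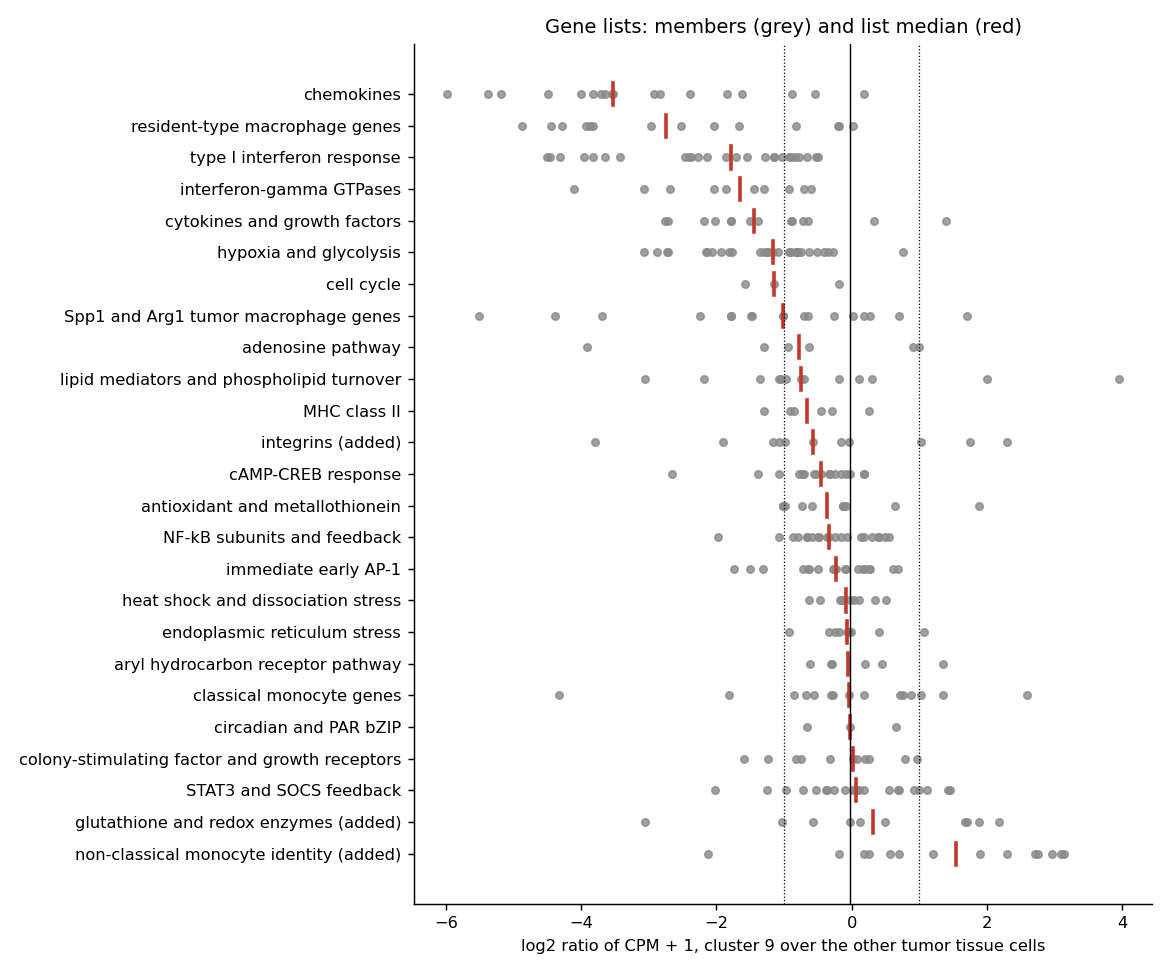
Log2 ratio of CPM + 1 of cluster 9 over the other tumor tissue cells (horizontal axis) for each measured member (grey) of each gene list with at least 3 of them, with the list median in red, dotted lines at 2-fold and a solid line at the median of all measured genes, -0.03. Chemokines lie farthest left with a median of -3.54 and the STAT3 and SOCS list lies at 0.06.

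Clusters 7 and 5 resembled it most, with Pearson's r of 0.93 and 0.92 over 6177 genes (log2(CPM + 1) of cluster sums). Clusters 9 and 7 were also the last to part. At resolution 0.6 of the authors' clustering, 197 of the 198 members shared a cluster of 494 cells with all 285 cells of cluster 7. At 0.7 the members stood with 6 cells of cluster 7, and at 0.8 with 0.

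Set against cluster 7, 323 of 5022 measured genes (6.43%) were called higher and 305 (6.07%) lower. The highest were Hpgd, Racgap1, Ldlrad3, Eno3 and Dgkg, and the lowest Cxcl3, Il23a, S100a9, Arg1 and Lrrc16a. Hpgd was 29.8-fold higher. Il23a, the p19 chain of interleukin-23, had 0 UMIs in cluster 9 and 41.2 CPM in cluster 7, at least 24.1-fold higher there. Of the low-oxygen genes, 25 of 31 measured members were lower than in cluster 7 and 0 higher (median log2 ratio -1.43, all measured genes 0.07). The non-classical monocyte list was added after the values were seen and holds several leading genes of this cluster. Of its measured members, 11 of 14 were higher and 0 lower (median 1.69), and nothing is read from that count. Hilpda was 15.2-fold (11.76 to 19.996) and Vegfa 8.26-fold (6.69 to 10.3) lower. Interferon genes did not separate the pair in that way, with 2 of 19 higher and 0 lower. Chemokines were lower in 5 of 12 measured members and higher in 0 (median -0.53), a smaller gap than against the other tumor cells together. MHC class II genes were higher in 4 of 6 and lower in 0. H2-Ab1 stood at 496 CPM in cluster 9 and 208 in cluster 7. Its level was uneven among the members of cluster 9, since 84 held a H2-Ab1 UMI and 114 held 0.

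Set against cluster 5, 318 of 5036 measured genes (6.31%) were called higher and 393 (7.8%) lower. Hpgd, Eno3, Cd36, Serpinb10 and Adgre4 led, and Cxcl9, Ccl5, Irg1, S100a9 and Ifit1 were lowest. All 25 measured type I interferon members and all 9 measured GTPases were lower (median log2 ratios -2.02 and -2.02, all measured genes 0.12). Chemokines were lower in 11 of 16 and higher in 0 (median -2.51). The non-classical monocyte list, with the limit given above, was higher in 11 of 14 and lower in 1 (median 1.71). Ifit1 was 27.6-fold lower (17.6 to 46.1). Low-oxygen genes were lower in 23 of 31. Gpcpd1 was higher than in either neighbour, 3.11-fold (2.60 to 3.73) over cluster 7 and 3.03-fold (2.55 to 3.62) over cluster 5. Of the 7 given markers, 2 were at least 2-fold higher than in cluster 7 (Gpcpd1 and Arid5a) and 2 than in cluster 5 (Gpcpd1 and Ahr).

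Tumor-bearing blood served as the other reference, because the leading genes were those of blood cells. Tissue and library cannot be told apart in it. Against its 351 cells outside cluster 9, 303 of 5402 measured genes (5.61%) were called higher and 311 (5.76%) lower. Thinning raised the second count to 467. All 7 given markers were higher than in blood. Dmkn stood above it most, at 117 against 4.02 CPM, 29.1-fold (17.95 to 50.1), followed by Nfil3 at 6.70-fold (5.78 to 7.79), Arid5a at 4.92, Socs3 at 4.62, Adora2b at 4.19, Ahr at 2.87 and Gpcpd1 at 2.68. For all of them but Gpcpd1, the ratio to blood was larger than the ratio to the rest of the tumor.

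The genes highest over blood were also carried by the other tumor clusters, most of them at higher levels than in cluster 9. Cxcl2 had 1 UMI in all blood cells and 220 CPM in cluster 9. Thbs1 (thrombospondin 1) stood at 2067 CPM (2000 to 2135) against 28.8 in blood and 329 to 6130 in the other tumor clusters. Cd14, the lipopolysaccharide co-receptor, stood at 1919 CPM (1855 to 1985) against 35.5 in blood and 695 to 3669 in the other tumor clusters. Ccl4, Cd83, Osm, Spp1 and Vegfa complete the 8, and Vegfa, at 0 UMIs in blood, was at least 80.9-fold higher in cluster 9. The lowest against blood were Retnlg, S100a9, Wfdc21, S100a8, Ngp, Stfa2l1, Saa3 and Mmp9, of which several are granule or neutrophil genes. Retnlg had 0 UMIs in cluster 9 and 219 CPM in blood, where each of the 5 larger clusters held 88.5 CPM or more. The part of neutrophil RNA in the genes lower than in blood was not tested.

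By list, early response and inflammatory genes separated the cluster from blood, beside 5.61% of all measured genes called higher and 5.76% lower. Against the other tumor cells, 0 of 19 AP-1, 0 of 17 cAMP-CREB, 0 of 21 NF-kB and 4 of 22 STAT3 and SOCS members were higher. Against blood, AP-1 genes were higher in 12 of 17 measured members and lower in 0. Their median log2 ratio was 1.72 beside -0.15 over all measured genes. The cAMP-CREB list was higher in 10 of 15 and lower in 0, the NF-kB list in 7 of 20 and 0, and the STAT3 and SOCS list in 11 of 24, with 2 lower. All 3 measured circadian members, Nfil3, Per1 and Bhlhe40, were higher. Per1, a clock repressor that cAMP also induces, stood at 55.9 CPM against 9.38 in blood and 46.9 to 60.6 in the other tumor clusters, so it set tumor from blood and not cluster 9 from its neighbours. Low-oxygen genes, lower than in the other tumor cells, were here higher in 8 of 29 and lower in 0. Hilpda, at 34.8 CPM in cluster 9, stood at 6.03 in blood. Chemokines were higher in 7 of 11 and lower in 1, Ccl5. Of the heat shock and dissociation genes, 2 of 10 (Hspa1a and Hspa1b) were higher than in blood. The part of tissue dissociation in these differences was not tested.

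Of the 14 genes that led cluster 9 within the tumor, 0 were at least 2-fold higher than in blood, and 6 were at least 2-fold lower (median log2 ratio -0.92, all measured genes -0.15). Hp was level, at 1077 CPM against 1048 in blood, and Mgst1 stood at 557 against 514. Adgre5, which encodes the adhesion receptor CD97, stood at 654 against 623 CPM, and between 142 and 272 CPM in the other tumor clusters. Integrin and glutathione genes, in lists added after the values were seen, had 0 calls against blood in either direction, of 9 measured in each list. Over all measured genes 5.61% were called higher and 5.76% lower, so nothing is read from these counts. The non-classical monocyte list had 2 of 14 measured members higher than in blood and 6 lower (median log2 ratio -0.82).

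To place the cluster, genes at least 4-fold apart between blood and the other tumor cells were taken, and each gene's level was put on a scale where 0 is blood and 1 is the pool of the other tumor clusters, in log2(CPM + 1). This measure was chosen after the values were seen, and the pool always left out cluster 9 and the cluster being placed. For 321 genes higher in tumor cells, the median position of cluster 9 was 0.53 (quartiles 0.26 and 0.76). For 129 genes lower in tumor cells it was 0.40 (0.24 to 0.68), with 65.9% of them nearer to blood. The other 7 clusters had medians between 0.72 (cluster 17) and 1.023 on the first set and between 0.86 (cluster 5) and 1.1 on the second. No other cluster was near the middle on both. With tumor-bearing spleen as the reference the cluster 9 medians were 0.53 and 0.47, and with naive blood 0.56 and 0.38.

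**Figure D4:**
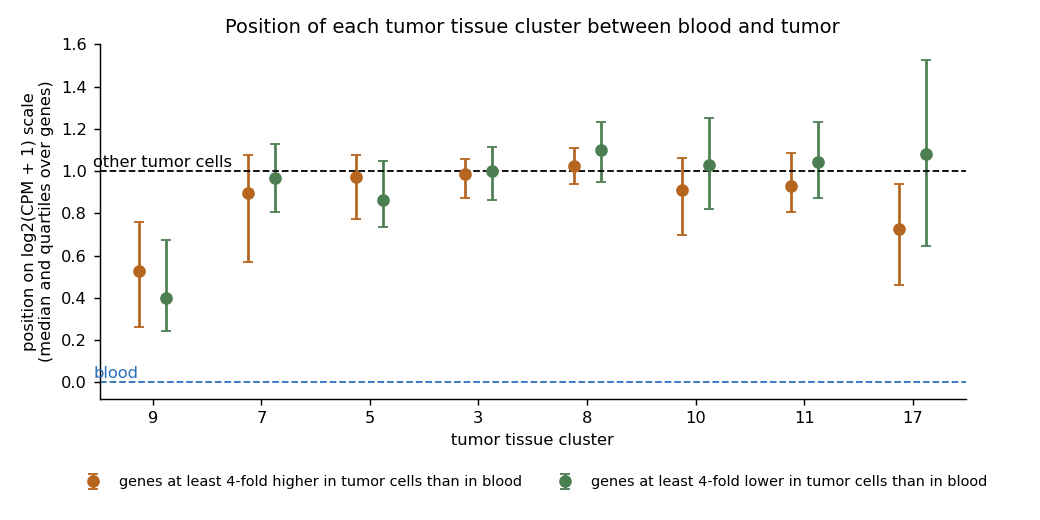
Median position with quartiles (vertical axis) of each tumor tissue cluster between tumor-bearing blood (0) and the pooled other tumor clusters (1), over genes at least 4-fold higher (brown) or lower (green) in tumor cells than in blood. Cluster 9 has medians of 0.53 and 0.40, and every other cluster has medians of 0.72 or more.

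Within the cluster, levels of classical and non-classical monocyte genes differed between members in opposite directions. Ace had a UMI in 69 of the 198 members, and 55 of those 69 also held Hp. Hp without Ace was found in 123 members and neither gene in 6. Members were set apart by Ace detection, a split made after the values were seen, with similar depth (median 8512 UMIs with Ace and 8938 without). Treml4 stood at 203 CPM in the 69 members with Ace and 26.9 in the 129 without, 7.54-fold (5.05 to 11.6). Eno3, an enolase, stood at 86.5 against 6.08 CPM, and H2-Ab1, a class II chain, at 874 against 299.5 CPM. A H2-Ab1 UMI was found in 84 of the 198 members, so these H2-Ab1 levels were carried by a part of them. In the opposite direction, Hp stood at 577 against 1338 CPM, 2.32-fold lower (2.06 to 2.61), and Chil3 at 1421 against 3107 CPM. The given markers were not concentrated with Ace. Nfil3 stood at 389 and 359 CPM and Socs3 at 426 and 436 CPM, while Dmkn was lower with Ace, at 71.6 against 141 CPM, and Hpgd differed little, at 135 against 102 CPM (ratio 1.33, 0.99 to 1.78). Over 197 thinned members Ace correlated with Treml4 at r 0.38 and with Ly6c2 at -0.38, and Hp with H2-Ab1 at -0.46.

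Surface antibodies were not used for clustering and give a separate reading of the same cells, in tags per 10000 tags. Cluster 9 was highest of the 8 tumor clusters for 3 of 47 antibodies and lowest for 23. These are shares of a total, so a larger share of 1 antibody leaves less for the rest. The part of this in the 23 was not tested. Ly-6C, the marker of classical monocytes, was highest, at 2569.6 tags against 793 to 2389 in the other clusters and 2483 in blood. CD97, which the Adgre5 gene encodes, stood at 176 against 104 to 150, and at 274 in blood. CD115, the receptor for colony-stimulating factor 1, stood at 199 against 131 to 182, and at 777 in blood. For these 3 the cluster lay outside the range of all other tumor clusters, by small margins for Ly-6C and CD115. Since members carried fewer tags in all, the median raw count per cell was lower than in the other tumor cells for each of them, at 291.5 against 321 tags for Ly-6C.

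Of the 47 antibodies 0 were 2-fold higher and 1 was 2-fold lower. CD16-32, which reads Fc gamma receptors III and II, stood at 298 tags against 674 over the other tumor cells (2.26-fold lower, 2.21 to 2.32), although cluster 7 was as low at 289. By the mean of the deposited normalized values the log2 ratio was -0.58 in place of -1.18, short of 2-fold. CD16.2 stood at 72.6 against 84.3 to 163 in the other tumor clusters and 188 in blood, and its gene Fcgr4 was lowest of the 8 clusters as well. CD88, the complement C5a receptor, stood at 83.6 against 94.0 to 155. Its gene C5ar1 stood at 90.7 CPM, with a median of 398 in the other tumor clusters. I-A-I-E, MHC class II, was uneven among members, with 144 tags over the cluster but 77.7 in the median cell. Of 30 antibodies whose gene was measured, 25 had the same direction as the RNA. Ly-6C was one of the other 5, with Ly6c2 RNA at 929 CPM against 1372 over the other tumor cells. Of all 47 antibodies 7 were higher by any amount. A shared direction was thus mostly a shared lower level, and nothing is read from the 25.

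**Figure D5:**
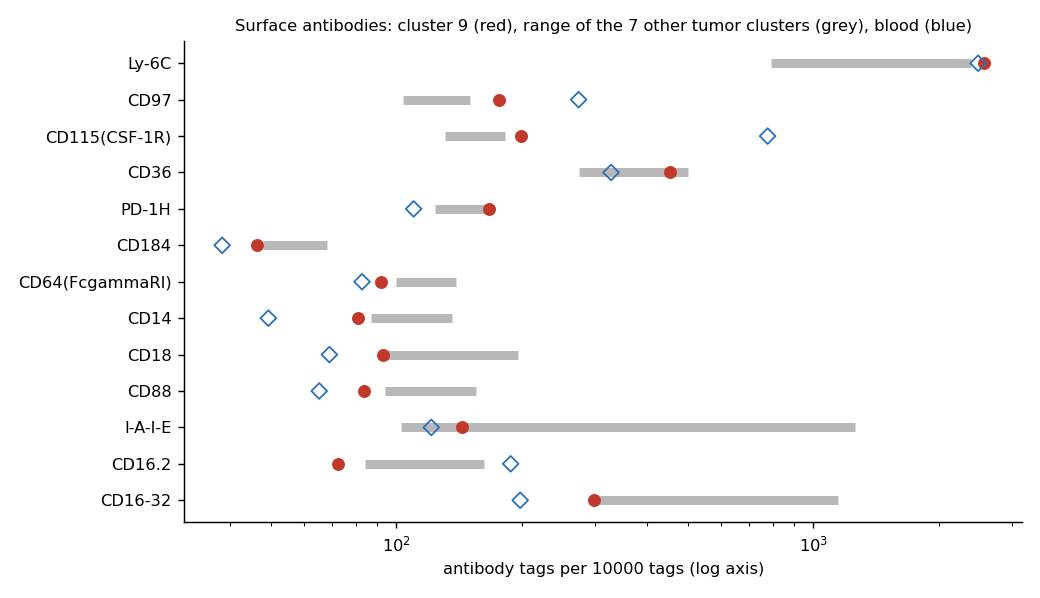
Antibody tags per 10000 tags (log axis) in cluster 9 (red), as the range over the 7 other tumor tissue clusters (grey bars) and in tumor-bearing blood (blue diamonds), for the antibodies whose ratio to the other tumor cells was below 0.75 or above 1.1. Ly-6C, CD97 and CD115 lie to the right of the grey bars, and CD16.2 lies to the left at 72.6 tags.

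Some antibodies differed with the split by Ace. The 69 members with an Ace UMI had a median of 2065 Ly-6C tags per 10000 (quartiles 1312 and 2696), against 2958 (2295 to 3474) in the 129 without. I-A-I-E was higher with Ace, at a median of 92.4 against 65.7 tags, CD97 at 192 against 152, CD11b at 2579 against 1987, and CD16.2 at 65.5 against 50.6. CD36 went against its RNA, with 391.7 tags with Ace and 479 without, where Cd36 RNA was 6.60-fold higher with Ace. CD115 (181 against 178) and F4-80 (76.4 against 79.2) differed little. The quartile ranges overlapped for each of these antibodies, and these are differences among cells of 1 library.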

How the data were processed

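RNA and antibody tags were read in 7 libraries of CD11b+ enriched cells, 1 per group. Per the submitters' processing notes, Cell Ranger and the mm10 build were used. Its version and the filters on cells were not given in the sources used here. Raw counts of UMIs and tags per cell, as whole numbers, fill the deposited gene and antibody tables. A second antibody table holds the natural log of 1 plus tags per 10000, as the authors normalized it. The mitochondrial share of each cell is a deposited fraction, and the cluster numbers are the authors', made on the RNA neighbour graph per the file headers.

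Counts were summed over the cells of a cluster, scaled to CPM and compared as ratios, with 1 CPM added for log2 values. Poisson, conditional binomial and Clopper-Pearson intervals at 95% cover counting error only. Library totals ran from 617821 to 20844058 UMIs. No doublet caller was run here, and no label says whether the authors removed doublets. Tumor tissue clusters under 50 cells (48 cells) were left out of the comparison. The analysis used Python 3.11.15, numpy 2.4.6, scipy 1.17.1 and pandas 2.3.3 and was tested on simulated data.

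Members, pathway lists and the choice of genes to name were settled with earlier results of these data known. Genes named are the 7 given markers, the 14 highest and 8 lowest ratios to the other tumor tissue cells, the 5 highest and 5 lowest against each of the 2 nearest clusters, up to 4 members of each list with the largest ratios, and antibodies at 2-fold or, failing that, the 3 highest and 3 lowest. The 8 highest and lowest against blood were picked once the values had been seen, as was any further gene. Some results are not reported here.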

Additional observations from a re-analysis of the deposited data

Results flagged for a closer look

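Cluster 9 also held 10 cells in the other libraries, which entered no comparison in the report. They were 3 of 814 naive blood cells, 3 of 354 tumor-bearing blood cells, 2 of 153 naive bone marrow cells and 2 of 579 tumor-bearing spleen cells, and 0 were found in the remaining libraries. Their median was 12530 UMIs. Dmkn stood at 126 CPM in them, from 16 UMIs in 5 cells, against 117 CPM in the tumor members. The other given markers followed there were lower than in the tumor members, with Nfil3 at 71.1 against 370 CPM, Socs3 at 158 against 432 and Gpcpd1 at 86.8 against 232. Thbs1 and Cd14 were lower, at 213 and 253 CPM against 2067 and 1919. S100a8 stood at 2589 CPM, of which 232 of 328 UMIs came from 1 cell, and Retnlg, at 0 in the tumor members, stood at 284 CPM.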

How the results depend on the processing

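Without a filter on low values, 994 genes stood at least 2-fold above the other tumor tissue cells and 4272 below, because genes with few UMIs then enter. The remaining settings gave 176 to 279 higher and 417 to 514 lower genes. Against tumor-bearing blood, the 311 lower genes became 467 with thinned cells and 530 with tumor-bearing spleen as the reference, which took the share of higher genes among those called from 49.3% to 36.6% in both. The cause was not tested. The median of the cell cycle list turned from -1.15 to 0.085 without cluster 11. Resident-type macrophage genes had a median of -1.75 in that setting and of -2.03 without a filter on low values, in place of -2.75. By the median raw tag count per cell, the log2 ratios of Ly-6C, CD97 and CD115 turned negative, at -0.14, -0.15 and -0.47, which include the lower tag total of the members. Arid5a fell under 2-fold in 6 settings (log2 0.88 to 0.96). Without its top cell Lcn2 fell below the minimum for measured genes (log2 1.64). The class II median moved to -1.24 with equal weight per cluster, and CD16-32 to -0.58 by the deposited normalized values. Of the 29 named genes followed, all others kept their direction and call. The alternative without cluster 13 was not run, since that cluster lies outside the comparison. No paired analysis was possible because each group is 1 library. A single library per group is the main limit: counting intervals do not cover the spread between mice.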
